A study of Mus musculus with 19 samples.

Results

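Immediate early genes are switched on within minutes of a neuron's firing, from factors already present in the cell and without new protein synthesis. The 51 genes described here were chosen by name as genes of this kind that respond to activity in the brain. The choice was made with earlier results of these data known. All 51 were among the 14996 genes of the deposited table, and all 51 had enough reads to be tested. The libraries came from the cortex of 19 APP23 mice, 1 library per mouse. All the mice were hemizygous for a transgene of human APP751 with the Swedish mutation of familial Alzheimer's disease, on a C57BL/6 background, and no group without the transgene was sequenced. From a mean age of 11.7 months they were fed for 3 months either a high fat diet (HFD, 40% of calories from fat) or a normal diet (ND), which gave 5 HFD females, 6 ND females, 4 HFD males and 4 ND males. Mice had been through a Morris water maze before tissue was taken, and were anaesthetised with Avertin and perfused with cold saline. The time from the last maze trial to the taking of tissue is not given in the sources used here. The tissue label reads brain, while the methods name the cortex.

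Calcium that enters through glutamate receptors and voltage-gated channels starts the response. Kinases carry the signal to CREB, SRF and MEF2, which are already bound at promoters, and these switch on a first set of transcription factors such as Fos, Egr1 and Npas4. The same wave holds enzymes that shut the signal down, such as the Dusp phosphatases, and proteins that act at the synapse or outside the cell, such as Arc and Bdnf. In the cortex these transcripts are widely read as a trace of recent neuronal activity, since most of them are short-lived.

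Promoter letters are shown as a description of the members. A choice of genes that CREB and SRF switch on favours such letters, so the shares are not independent of that choice. The promoter table of RefSeq (GRCm38.p6) matched 39 of the 51 genes, with 58 start sites, and the 250 bases before each start were searched on both strands. The letters TGACG, the core of the CREB site (which also lies within the full site TGACGTCA), stood before a start of 27 of the 39 members (69.2%), against 19.8% of the 27025 genes in the promoter table. Counted by start site, the share was 56.9% for the members and 17.8% for all genes. The genes compared were not matched for base content or number of start sites. The full TGACGTCA stood before 6 of the 39 (15.4%, against 1.77%), in Maff, Dusp1, Plk2, Errfi1, Btg2 and Arl4d. The CArG box, which binds SRF, stood before Egr2, Dusp5 and Zfp36 (7.69%, against 1.62%), and the EGR motif, GCGGGGGCG or GCGTGGGCG, before 7 (17.9%, against 3.47%). The AP-1 site TGANTCA stood before Csrnp1 and Bdnf (5.13%, against 7.82%). Egr1, Egr3, Klf10, Crem, Ier2, Dusp4, Sik1, Trib1, Kdm6b, Arc, Nptx2 and Vgf were not matched. Stretches before the start of 5 members that recur in the results, and of Zfp36, which differed in the other direction, read as follows on the strand of the gene, with TGACG (or its reverse, CGTCA) in capitals and, for Zfp36, the CArG box.
Fosb (chr7:19310046-19310135, minus strand): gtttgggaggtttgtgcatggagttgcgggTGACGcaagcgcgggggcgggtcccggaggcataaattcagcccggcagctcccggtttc
Fos (chr12:85473745-85473839, plus strand): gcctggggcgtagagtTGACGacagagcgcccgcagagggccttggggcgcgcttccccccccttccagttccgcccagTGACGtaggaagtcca
Egr2 (chr10:67537744-67537833, plus strand): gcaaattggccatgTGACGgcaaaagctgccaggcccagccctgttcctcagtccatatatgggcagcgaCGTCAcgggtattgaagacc
Nr4a3 (chr4:48045065-48045164, plus strand): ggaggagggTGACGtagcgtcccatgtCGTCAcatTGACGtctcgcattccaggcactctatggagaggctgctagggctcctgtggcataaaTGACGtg
Klf4 (chr4:55532636-55532725, minus strand): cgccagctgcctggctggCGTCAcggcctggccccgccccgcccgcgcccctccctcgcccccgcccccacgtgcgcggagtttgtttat
Zfp36 (chr7:28379249-28379338, minus strand): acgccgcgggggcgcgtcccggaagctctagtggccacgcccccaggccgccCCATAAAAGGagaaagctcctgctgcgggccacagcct
Fosb and Klf4 each held TGACG 1 time in the stretch shown, Fos and Egr2 held it 2 times, and Nr4a3 held it 4 times within 100 bases. These 5 are all members with TGACG and do not stand for the genes that differed with diet. Of the matched members reported below as lower on HFD, Fosl2, Pim1, Jun, Gadd45b, Gadd45g and Tiparp had no TGACG in the bases searched. A match of letters describes the sequence and does not show that a factor was bound.

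Library totals did not overlap between the sexes, from 11727151 to 17178044 reads in females and from 9308206 to 10844280 in males, so that sex cannot be told apart from depth. Values are given in RPM, the reads of a gene scaled to a common library total, which are not scaled to gene length and are compared only within a gene. Members had from 9 reads (Atf3) to 7329 reads (Egr1) in a library. X-linked and Y-linked transcripts fitted the labelled sex in 19 of 19 libraries, and no pair of libraries within a group agreed within counting noise. Marker genes of cortical glutamatergic neurons, the main site of the response, were all detected, with summed levels of 4794 to 6013 RPM in HFD females, 4581 to 5971 RPM in ND females, 5331 to 6228 RPM in HFD males and 4339 to 5820 RPM in ND males. None of the 11 passed the test with diet in both sexes together or in females, while in males 1 was higher on HFD, the vesicular glutamate transporter gene Slc17a7 (0.26, SE 0.11), with a list median of 0.25. In bulk cortex, fewer cells of a type and less RNA per cell cannot be told apart.

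With both sexes together and sex in the model, 18 of the 51 genes were lower on HFD and 1 was higher, at the study's cut-off of an unadjusted p under 0.05 in edgeR's quasi-likelihood test. Of all 14834 genes tested, 6.99% were lower and 5.44% higher by the same rule. The 18 were Klf4, Pim1, Kdm6b, Fosl2, Fosb, Dusp4, Midn, Sik1, Gadd45b, Egr2, Nr4a3, Gadd45g, Jun, Vgf, Egr4, Tiparp, Nptx2 and Gpr3, and the 1 higher was Zfp36. The log2 fold change was below 0 for 45 of the 51, or 88.2%, against 51.3% of all genes tested, and its median was -0.27 over the members and -0.00 over all genes. The members were chosen with earlier results of these data known, and the study had itself reported Klf4, Fosl2, Egr2, Nr4a1 and Nr4a3 as lower on HFD. These shares are therefore not an independent test. None of the 51 passed a Benjamini-Hochberg adjusted p of 0.05 in edgeR, nor did any other gene (the smallest adjusted p of a member was 0.0526, for Klf4). DESeq2 gave 8 members past that threshold, Dusp4, Fosb, Fosl2, Kdm6b, Klf4, Midn, Pim1 and Sik1, all lower, among 124 genes of all those tested.

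**Figure D1:**
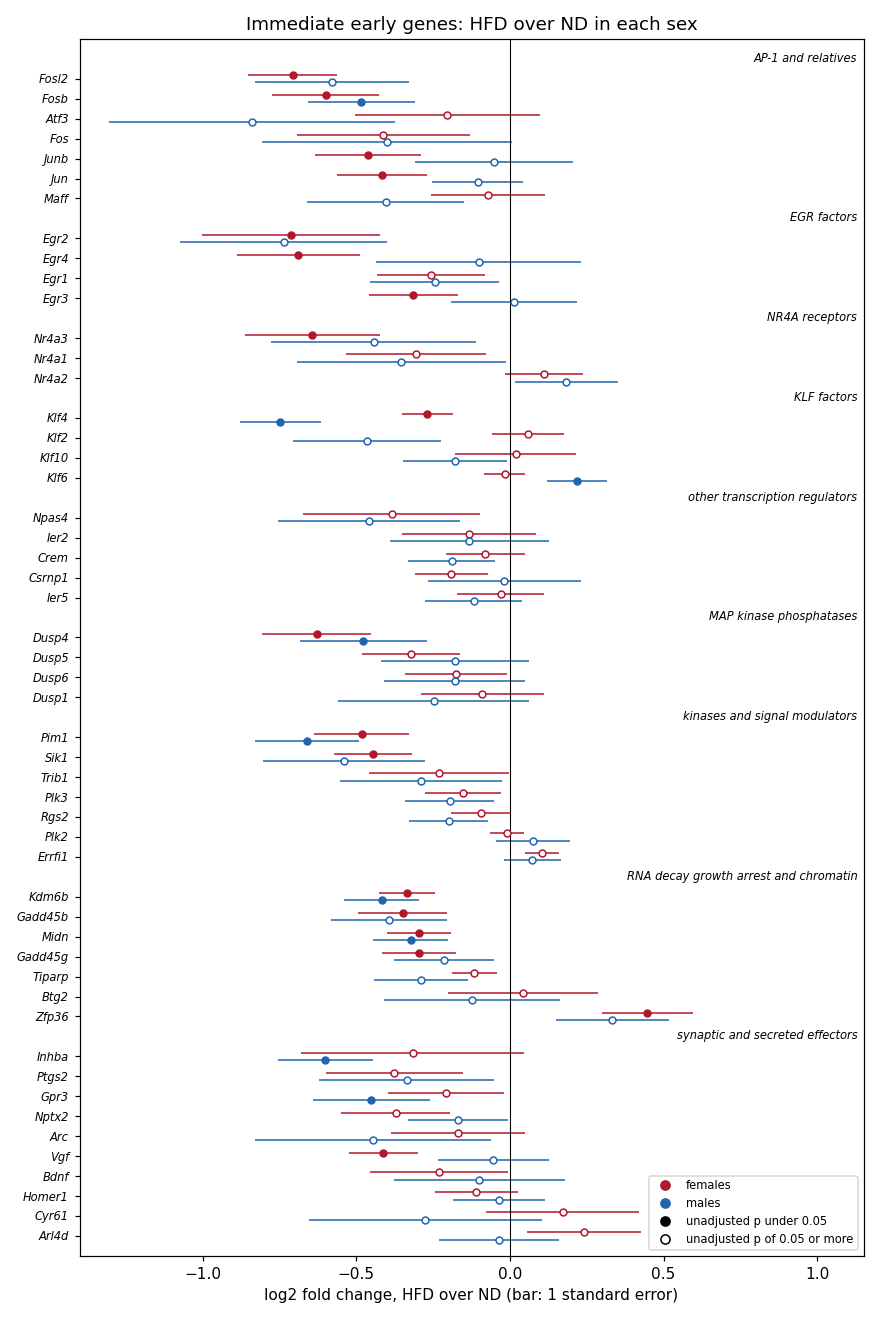
The log2 fold change of each of the 51 genes, HFD over ND, in females (red) and in males (blue), with bars of 1 standard error, grouped by role; filled points have an unadjusted p under 0.05. Most points lie left of 0 in both sexes, Zfp36 lies right of it in both, and Klf4 is the gene whose points lie apart beyond their bars with filled points in both sexes.

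Fos, Jun and their relatives form the AP-1 dimers that carry the first wave to later target genes. All 7 genes of this group had fold changes below 0, and Fosl2, Fosb and Jun passed the cut-off. Fosl2, which encodes the Fos family protein Fra-2, had 57.0, 56.8, 39.4, 51.3 and 33.4 RPM in HFD females, against 63.4 to 90.5 RPM (median 78.1) in ND females. Its levels in males were 42.3, 50.9, 69.3 and 97.4 RPM on HFD, against 86.1, 91.2, 110 and 109 RPM on ND. The female groups did not overlap, and among males only HFD male F1145 lay within the ND range. The fold change over both sexes was -0.66 (SE 0.14, edgeR adjusted p 0.117).

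Fosb, also of the Fos family, had 24.5, 24.1, 13.7, 20.5 and 17.0 RPM in HFD females, against 24.0 to 40.7 RPM (median 27.6) in ND females. HFD males had 17.3, 22.7, 24.7 and 29.0 RPM and ND males 26.0, 38.2, 37.8 and 31.8 RPM. The groups overlapped only at the edges of their ranges, and the fold change was -0.56 (SE 0.13, adjusted p 0.131). Jun averaged 32.3 ± 3.59 RPM in HFD females and 43.3 ± 10.6 RPM in ND females (SD), and 34.0 ± 7.08 RPM in HFD males and 37.4 ± 6.06 RPM in ND males, a fold change of -0.29 (SE 0.12). The Jun call was lost without HFD female F1100.

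Fos itself, the gene most used as an activity marker, did not pass. HFD females had 53.9, 32.2, 21.3, 20.5 and 17.6 RPM, against 28.6 to 56.9 RPM (median 35.9) in ND females. HFD males had 15.9, 35.0, 30.7 and 68.5 RPM, against 44.1, 61.3, 44.1 and 52.0 RPM in ND males. In each sex 1 HFD mouse, female F1063 and male F1145, was at or near the top of all mice of that sex, and the others lay at or under the lower part of the ND range. The fold change was -0.41 with SE 0.24 (unadjusted p 0.11). Without F1063, or without F1145, it passed the cut-off, at -0.59 at its furthest over all mice left out in turn, and it passed with limma-voom on all mice (-0.54, unadjusted p 0.0364). Junb (-0.30, SE 0.16), Atf3 (-0.48, SE 0.28) and the small Maf protein gene Maff (-0.20, SE 0.14) also missed it.

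The EGR zinc finger factors had 2 of 4 members lower, Egr2 and Egr4, and 4 of 4 below 0. Egr2 had the lowest fold change of the 51 genes, -0.73 (SE 0.23, adjusted p 0.207). It had 16.9, 11.5, 5.98, 10.01 and 5.11 RPM in HFD females, against 10.8 to 21.5 RPM (median 16.0) in ND females, and 4.98, 11.1, 10.3 and 19.01 RPM in HFD males, against 15.5, 19.9, 21.7 and 19.9 RPM in ND males. The groups overlapped in both sexes. Egr4 averaged 12.7 ± 2.20 RPM in HFD females and 20.6 ± 6.38 RPM in ND females, and 11.8 ± 4.40 RPM in HFD males and 12.9 ± 4.45 RPM in ND males. Its call (-0.47, SE 0.20) was lost without HFD male A1095, HFD female F1094, F1100 or F1252, ND female F1139 or ND male F1080. Egr1, which binds the GCG-rich motif printed above, averaged 330 ± 52.0 RPM in HFD females and 395 ± 98.3 RPM in ND females, and 343 ± 74.4 RPM in HFD males and 415 ± 77.8 RPM in ND males. Its fold change, -0.26 (SE 0.14), missed the cut-off with all mice and passed it without ND female F1074 or ND male F1079. Egr3 also missed it (-0.19, SE 0.13).

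The NR4A genes encode nuclear receptors that work without a known hormone and that rise after learning. Nr4a3 was the 1 of 3 that passed (-0.57, SE 0.20, adjusted p 0.242). Its levels were 14.5, 12.5, 7.06, 8.98 and 9.26 RPM in HFD females, against 11.2 to 26.0 RPM (median 15.4) in ND females, and 6.18, 10.001, 17.0 and 19.8 RPM in HFD males, against 14.6, 17.5, 18.8 and 22.6 RPM in ND males. Nr4a1 averaged 88.5 ± 33.6 RPM in HFD females and 110 ± 23.8 RPM in ND females, and 90.8 ± 42.2 RPM in HFD males and 118 ± 17.7 RPM in ND males. Its fold change was -0.33 (SE 0.20, unadjusted p 0.117), and like that of Fos it passed without F1063 or without F1145. The study reported Nr4a1 as significantly lower on HFD by edgeR, whereas with all mice it missed the cut-off in the quasi-likelihood test used here. Nr4a2 went the other way in value, 0.14 (SE 0.11), without passing.

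Klf4, a zinc finger factor best known for holding stem cells in their state and also induced in neurons, had the smallest p of the 51. HFD females had 6.95, 7.53, 7.37, 7.18 and 8.05 RPM, against 8.11 to 9.98 RPM (median 9.11) in ND females. HFD males had 4.98, 5.44, 5.86 and 5.39 RPM, against 8.32, 10.1, 10.2 and 8.59 RPM in ND males. The groups did not overlap in either sex, and Klf4 was the only member of which this held. The fold change over both sexes was -0.46 (SE 0.08, edgeR adjusted p 0.0526). Of the other KLF genes, Klf2 (-0.14, SE 0.13), Klf6 (0.08, SE 0.06) and Klf10 (-0.07, SE 0.15) did not pass with both sexes together.

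**Figure D2:**
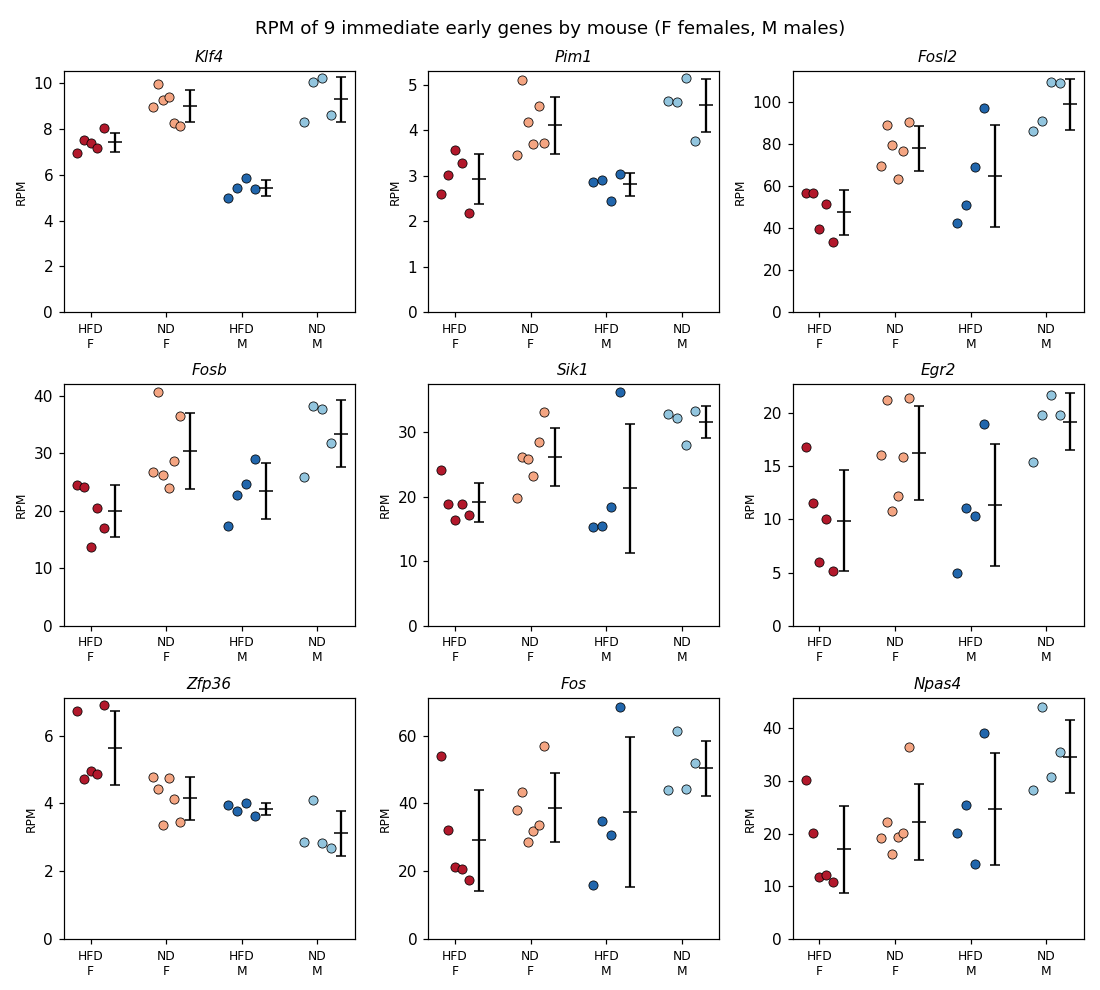
RPM of 9 immediate early genes in each mouse, with the axis from 0, in HFD and ND females and HFD and ND males; the cross bar is the group mean and the error bar 1 SD. Klf4 separates HFD from ND mice in both sexes, Fosl2 does so in females and Pim1 in males, while Fos and Npas4 each have 1 high HFD mouse per sex.

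None of the 5 other transcription regulators passed. Npas4, a factor that answers to calcium entry with little response to other signals, had 30.2, 20.1, 11.8, 12.2 and 10.8 RPM in HFD females, against 16.2 to 36.4 RPM (median 19.8) in ND females. It had 20.1, 25.3, 14.3 and 39.1 RPM in HFD males, against 28.3, 44.0, 30.7 and 35.5 RPM in ND males. Once more F1063 and F1145 were the highest on HFD, and the fold change of -0.42 (SE 0.22, unadjusted p 0.0722) passed the cut-off without F1063, without F1145, or with limma-voom (-0.49, unadjusted p 0.0313). The fold changes of Crem, Csrnp1, Ier2 and Ier5 lay between -0.14 and -0.07.

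Among the phosphatases that switch MAP kinases off, Dusp4 was lower and Dusp1, Dusp5 and Dusp6 did not pass, all 4 being below 0. Dusp4, which acts in the nucleus, had 9.12, 12.5, 10.3, 11.8 and 6.83 RPM in HFD females, against 12.4 to 22.6 RPM (median 15.3) in ND females. It had 6.46, 10.7, 9.86 and 6.66 RPM in HFD males, against 11.8, 14.9, 12.3 and 9.02 RPM in ND males. In females the overlap came from a single pair of mice, at 12.5 and 12.4 RPM, and the fold change was -0.58 (SE 0.14, adjusted p 0.131).

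Pim1 and Sik1 were lower among the 7 kinases and signal modulators. Pim1, a serine/threonine kinase that is active as soon as it is made, had 2.61, 3.03, 3.57, 3.27 and 2.17 RPM in HFD females, against 3.45 to 5.12 RPM (median 3.95) in ND females, with 1 HFD female inside the ND range. HFD males had 2.86, 2.91, 2.44 and 3.04 RPM and ND males 4.66, 4.62, 5.16 and 3.76 RPM, which do not overlap. Its fold change was -0.56 (SE 0.11, edgeR adjusted p 0.0659), at 25 to 78 reads per library. Sik1, the salt-inducible kinase that keeps CREB's coactivators out of the nucleus, had 24.1, 18.9, 16.4, 18.9 and 17.2 RPM in HFD females, against 19.8 to 33.1 RPM (median 26.0) in ND females. It had 15.2, 15.4, 18.4 and 36.2 RPM in HFD males, against 32.8, 32.2, 28.0 and 33.3 RPM in ND males. HFD male F1145 was above every ND male and the other 3 HFD males were below all of them. The fold change of Sik1 was -0.49 (SE 0.13). Plk2 (0.02, SE 0.06) and Errfi1 (0.09, SE 0.05), a polo-like kinase and an inhibitor of the EGF receptor, stayed within 0.1 of 0 on the log2 scale, and Plk3, Trib1 and Rgs2 lay between -0.26 and -0.14 without passing.

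The group for RNA decay, growth arrest and chromatin held 5 lower genes and the 1 that was higher. Kdm6b, a demethylase that removes the repressive mark on lysine 27 of histone H3, had 24.9, 27.1, 28.0, 25.8 and 25.7 RPM in HFD females, against 27.4 to 39.5 RPM (median 33.8) in ND females. It had 26.0, 19.7, 26.6 and 32.2 RPM in HFD males, against 37.3, 31.8, 33.1 and 40.6 RPM in ND males, and the fold change was -0.37 (SE 0.08, adjusted p 0.101), or -0.15 with the olfactory bulb covariate described further on. The groups overlapped at the edge in each sex, with HFD females within a narrow band below most ND females. Midn, which hands immediate early proteins to the proteasome, averaged 57.5 ± 7.75 RPM in HFD females and 70.9 ± 8.68 RPM in ND females, and 54.4 ± 8.54 RPM in HFD males and 69.6 ± 7.81 RPM in ND males (fold change -0.31, SE 0.08). Gadd45b (-0.37, SE 0.12) and Gadd45g (-0.27, SE 0.10), stress sensors with a part in DNA demethylation, and Tiparp (-0.19, SE 0.08), an ADP-ribosyltransferase, were also lower, but the Tiparp call was lost when any 1 of 10 mice was left out, A1095 and F1252 among them. Gadd45b averaged 9.66 ± 1.47 RPM in HFD females and 12.4 ± 2.57 RPM in ND females, and 8.24 ± 2.59 RPM in HFD males and 11.02 ± 1.21 RPM in ND males. Gadd45g averaged 7.08 ± 0.489 RPM in HFD females and 8.74 ± 1.64 RPM in ND females, and 5.93 ± 1.10 RPM in HFD males and 7.05 ± 1.06 RPM in ND males. Btg2 did not pass (-0.03, SE 0.20).

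Zfp36 encodes tristetraprolin, which binds AU-rich elements and hastens the decay of short-lived messengers. It had 6.73, 4.71, 4.97, 4.88 and 6.90 RPM in HFD females, against 3.36 to 4.79 RPM (median 4.28) in ND females, and 3.97, 3.79, 4.00 and 3.62 RPM in HFD males, against 2.87, 4.10, 2.83 and 2.69 RPM in ND males. Both sexes overlapped, males only through ND male F1080. The fold change was 0.40 (SE 0.11, edgeR adjusted p 0.159), and it missed the cut-off with the olfactory bulb covariate described further on (0.28, unadjusted p 0.056).

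Of the 10 genes whose products act at the synapse or outside the cell, Vgf, Nptx2 and Gpr3 were lower and 9 were below 0. Vgf, a precursor of secreted neuropeptides, had 145, 188, 155, 190 and 122 RPM in HFD females, against 199 to 253 RPM (median 209) in ND females, with no overlap. In males it had 86.5, 138, 115 and 107 RPM on HFD, against 97.5, 145, 126 and 107 RPM on ND, which overlapped nearly throughout. The Vgf fold change over both sexes was -0.27 (SE 0.11), and the call was lost without HFD female F1063, HFD female F1252 or ND male F1080, without the mice whose identifiers begin with A, or without a term for sex. Nptx2, a pentraxin that gathers AMPA receptors (-0.29, SE 0.13), and Gpr3, a receptor that raises cyclic AMP without a ligand (-0.30, SE 0.14), were close to the cut-off and were lost without A1095, without F1252 or without several other mice, each left out alone.

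Arc, which is carried to active synapses and helps withdraw AMPA receptors there, had 371, 246, 267, 263 and 184 RPM in HFD females, against 194 to 459 RPM (median 284) in ND females. HFD males had 93.4, 264, 163 and 291 RPM, against 195, 334, 329 and 271 RPM in ND males. The groups overlapped in both sexes and the fold change, -0.29 (SE 0.21, unadjusted p 0.188), did not pass. Bdnf (-0.18, SE 0.18), Homer1 (-0.08, SE 0.11), Ptgs2 (-0.36, SE 0.18), Inhba (-0.43, SE 0.24), Cyr61 (-0.01, SE 0.23) and Arl4d (0.13, SE 0.15) did not pass either. The counts are per gene, so that the activity-induced short form of Homer1 and the promoter-specific forms of Bdnf are merged with the rest.

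In females alone 17 members were lower and 1, Zfp36, was higher, against 4.5% and 3.92% of the 14756 genes tested. Fosl2 had the smallest p (-0.71, SE 0.14, edgeR adjusted p 0.346), followed by Kdm6b (-0.33, SE 0.09, adjusted p 0.386). In males alone 8 were lower, against 4.2% of 14293 genes, and 1, Klf6, was higher, against 4.2%. The 8 were Klf4 (-0.75, SE 0.13), Pim1 (-0.66, SE 0.17), Inhba, Kdm6b, Fosb, Midn, Gpr3 and Dusp4, with edgeR adjusted p of 0.553 for Klf4 and Pim1. Inhba, a subunit of activin, had 6.27, 6.89, 5.47 and 5.58 RPM in HFD males, against 7.73, 9.74, 11.3 and 8.81 RPM in ND males. The male count was 4 without ND male F1080, 5 without ND male F1128 and 14 without HFD male F1145. The Klf6 call in males (0.22, SE 0.10) was lost without HFD male A1095 or F1065 or ND male F1079, F1128 or F1131. Scaled by library totals alone, males had 10 lower members and none higher. The median fold change was -0.23 in females (-0.12 without ND female F1073) and -0.24 in males (-0.10 without HFD male A1095), with 43 members below 0 in females, against 49.2% of genes, and 45 in males, against 50.4%. All HFD mice lay below all ND mice for 3 members in females (Klf4, Fosl2 and Vgf), against 0.393% of genes, and for 3 in males (Klf4, Pim1 and Inhba), against 3.39% of genes. None lay wholly above ND in either sex, as did 0.264% of genes in females and 1.53% in males.

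A difference between the sexes in the response to diet was tested as an interaction, and passed the cut-off for 1 member of 51, Klf4, against 5.21% of the 14934 genes tested. The Klf4 fold change in females minus that in males was 0.48 (SE 0.14, unadjusted p 0.0026, edgeR adjusted p 0.903), the lower level on HFD being further below ND in males (means of 5.42 ± 0.359 and 9.30 ± 0.980 RPM, n = 4 each) than in females (7.42 ± 0.413 and 8.99 ± 0.705 RPM, n = 5 and 6). Klf2 (0.52, SE 0.26) and Klf6 (-0.23, SE 0.12) came next and did not pass. Klf2, a relative of Klf4, averaged 7.27 ± 1.10 RPM in HFD females and 7.02 ± 0.705 RPM in ND females, and 4.97 ± 1.62 RPM in HFD males and 6.99 ± 1.53 RPM in ND males. Klf6 averaged 62.5 ± 3.39 RPM in HFD females and 63.5 ± 6.01 RPM in ND females, and 73.6 ± 9.48 RPM in HFD males and 64.8 ± 4.42 RPM in ND males. The number of members past the cut-off reached 5 without HFD male F1145, 4 without ND male F1080, 3 without HFD male A1095 or F1129, and 2 without HFD female F1063 or F1100, ND female F1102 or ND male F1079.

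Between the sexes, with diet in the model, 10 members were higher in females and 4 lower (Btg2, Fosl2, Npas4 and Atf3), against 14.1% and 12.5% of genes. Vgf (0.69, SE 0.11, edgeR adjusted p 0.00105), Zfp36 (0.49, SE 0.12, adjusted p 0.00973) and Egr3 (0.47, SE 0.13, adjusted p 0.0283) passed the adjusted threshold, as did 11.3% of all genes. The Egr3 call was lost without HFD male A1095, ND male F1079 or ND male F1131. Egr3 averaged 60.7 ± 9.97 RPM in HFD females and 48.9 ± 9.79 RPM in HFD males, and 75.8 ± 14.6 RPM in ND females and 49.5 ± 10.97 RPM in ND males. In the same comparison all 9 olfactory bulb markers were lower in females (median -2.28), while 7 of 8 microglial, 5 of 7 striatal projection neuron (median 0.86) and 4 of 6 oligodendrocyte markers (median 0.33) were higher. Their part in the difference was not tested. The number of members higher in females was 6 without HFD male A1095, HFD female F1076, ND male F1079 or ND male F1131.

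The members varied more between mice of 1 group than most genes did. The biological coefficient of variation, which edgeR estimates as the spread beyond counting noise, had a median of 19.2% over the 51 members and 8.91% over all genes tested, and 50 of the 51 lay above that all-gene median. It ran from 6.93% for Errfi1 to 38.8% for Atf3, with 36.3% for Fos, 32.5% for Npas4, 31.5% for Arc and 34.3% for Egr2. Of the genes with the smallest p, Klf4 was at 9.17%, Pim1 at 10.2%, Kdm6b at 11.1%, Fosl2 at 20.5%, Fosb at 19.1% and Dusp4 at 19.8%.

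**Figure D3:**
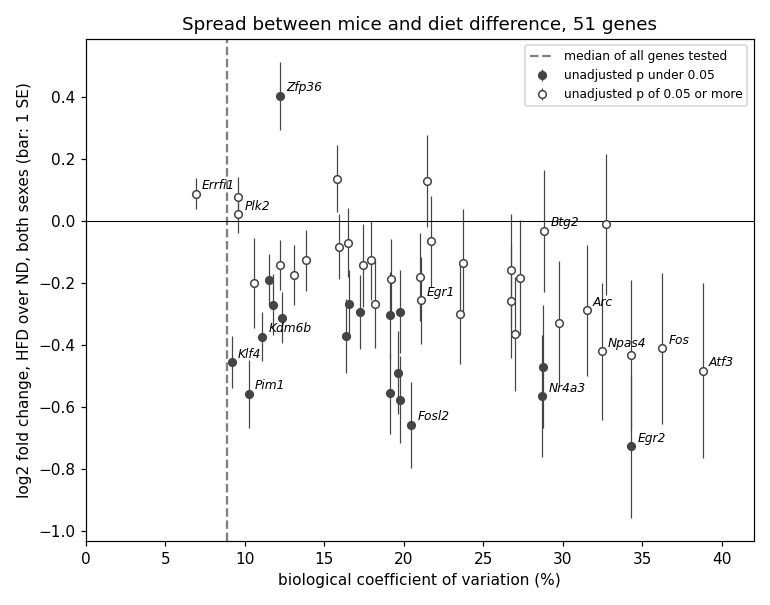
Each of the 51 genes by its biological coefficient of variation (horizontal, in percent) and its log2 fold change, HFD over ND, in both sexes (vertical, bars of 1 standard error); filled points have an unadjusted p under 0.05 and the dashed line is the median of all genes tested, 8.91%. Klf4 and Pim1 lie near the line, while Fos, Arc, Npas4 and Egr2 lie above 30%.

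Part of this spread was shared, with many members high or low in the same mouse. HFD male A1095 had the lowest level of the 8 males for 34 of the 51 members, or 66.7%, against 7.44% of all genes, and it had 93.4 RPM of Arc and 232 RPM of Egr1. HFD female F1252 had the lowest level of the 11 females for 27 members, or 52.9%, against 7.64% of all genes. At the other end, ND female F1073 was the highest female for 24 members (47.1%, against 7.71% of all genes) and ND female F1139 for 15 (29.4%, against 7.58%). ND males F1080 and F1128 were the highest males for 18 members each (35.3%, against 9.75% and 10.9%). ND male F1079 was the lowest of all 8 males for 3 members (5.88%, against 10.7% of all genes). Without A1095 and F1252, 12 members were lower on HFD, against 6.45% of genes, and the median fold change was -0.16. These 12 were Dusp4, Egr2, Fosb, Fosl2, Gadd45b, Gadd45g, Kdm6b, Klf4, Midn, Nr4a3, Pim1 and Sik1.

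**Figure D4:**
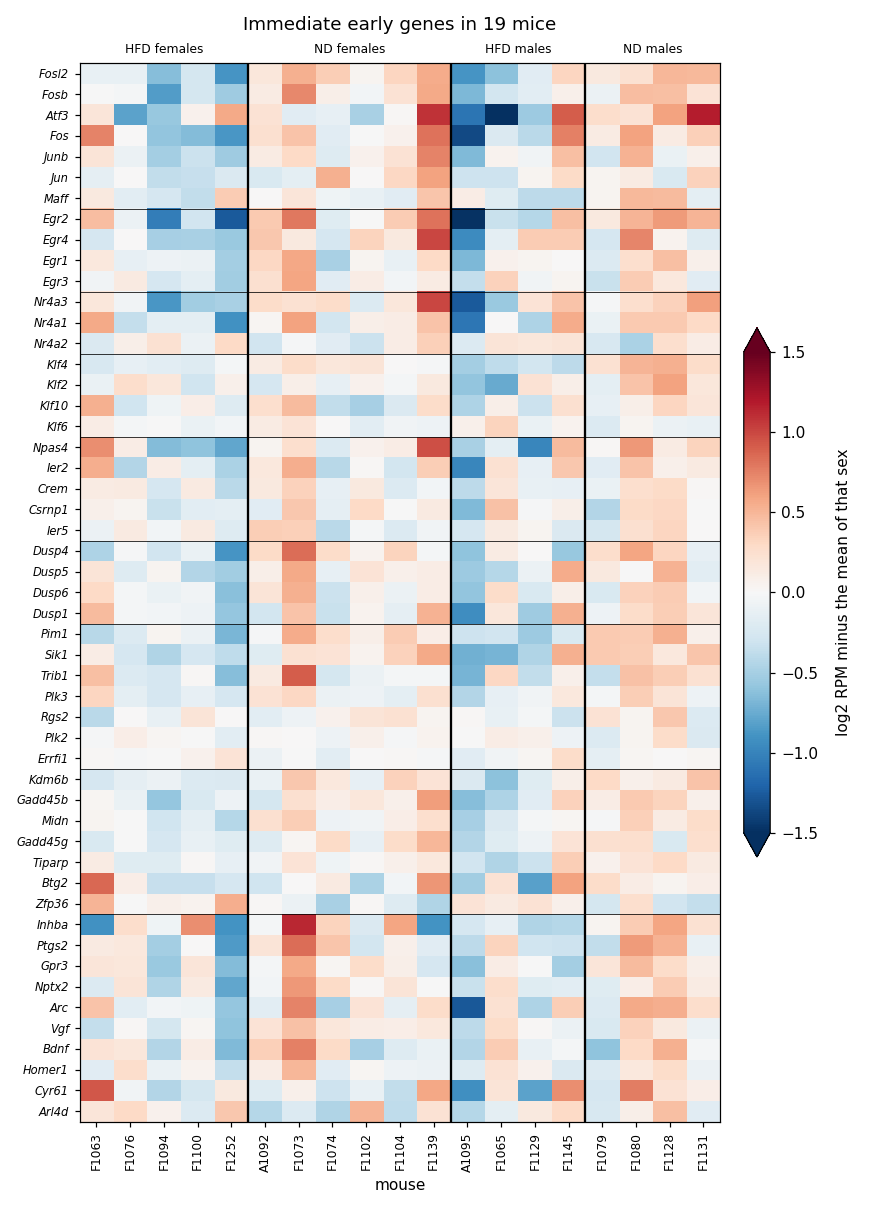
The log2 RPM of each of the 51 genes in each mouse, less the mean of that gene over all mice of the same sex; blue is below the mean and red above, and horizontal lines part the role groups. The columns of HFD male A1095 and HFD female F1252 are blue over most rows, and those of ND females F1073 and F1139 are red over many. The Zfp36 row runs against most of the others, though not against all of them.

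Markers of other cells and regions moved with diet as well. Of the 9 olfactory bulb markers, 8 were lower on HFD with both sexes together (median fold change -1.17), with summed levels of 33.1 to 41.5 RPM in HFD females, 38.7 to 159 RPM in ND females, 37.8 to 399 RPM in HFD males and 220 to 531 RPM in ND males. With the log2 of that sum as a covariate, 15 members were lower on HFD in both sexes together, against 3.5% of genes, and none was higher. These 15 included Klf4, Pim1, Fosl2, Fosb, Dusp4, Kdm6b and Midn, and also Egr1, Egr3, Crem, Csrnp1 and Rgs2, which did not pass without the covariate. The median fold change of the members was -0.29 with it. Among the calls lost, the fold change with the covariate was -0.62 for Egr2, -0.45 for Nr4a3, -0.29 for Gadd45b, -0.23 for Sik1, -0.16 for Gadd45g and -0.15 for Jun. That of Kdm6b was -0.15, and passed at an unadjusted p of 0.0431. In females, where the sums of the diet groups hardly overlap, the count was 3 (Egr4, Fosl2 and Klf4), against 1.76% of genes, and in males it was 14, against 3.06%. Of 10 interneuron markers 5 were lower on HFD, with sums of 862 to 1411 RPM in HFD females, 1078.7 to 1809 RPM in ND females, 905 to 1479 RPM in HFD males and 1439 to 2189 RPM in ND males. Of 8 microglial markers 7 were higher, with sums of 479 to 725 RPM in HFD females, 461 to 620 RPM in ND females, 415 to 605 RPM in HFD males and 393 to 449 RPM in ND males. All 4 blood cell markers in the table and 3 of 8 endothelial markers were higher too. Taken by sex, 4 of 4 blood and 3 of 8 endothelial markers were higher in females, and 0 of 3 and 0 of 8 in males. Of the olfactory bulb markers tested, 8 of 8 were lower in females and 0 of 9 in males, where all 9 were below 0. Interneuron markers had 1 of 10 lower in females and 2 of 10 in males, and microglial markers 4 of 8 and 3 of 8 higher. No marker in these lists was at 0 in every library. The part of the interneuron, microglial, blood and endothelial signals in the results on the members was not tested.

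Genes that carry the signal from the membrane to the promoters were set beside the members, with 6.99% of all genes lower and 5.44% higher in both sexes together. Of 7 genes for calcium entry and glutamate receptors, 1 was lower on HFD in both sexes together, the AMPA receptor subunit gene Gria1 (-0.14, SE 0.05). The others with the smallest p, Cacna1d (-0.11, SE 0.07), Grin2b (0.16, SE 0.11) and Grin2a (0.18, SE 0.13), did not pass. Gria1 was lower in females alone (-0.20, SE 0.07), as 4.5% of all genes were, and did not pass in males (-0.05, SE 0.06). In males alone Grin2b (0.45, SE 0.10) and Grin2a (0.52, SE 0.13), NMDA receptor subunit genes, were higher on HFD, as 4.2% of all genes were. In females they did not pass (-0.05 for each). The interaction of diet and sex passed the cut-off for 3 of the 7, Grin2a, Grin2b and Gria2, against 5.21% of genes. Of 22 kinases and phosphatases on the way to the nucleus 3 were lower and 1 higher. The lower ones were Adcy8, a calcium-activated adenylyl cyclase (-0.31, SE 0.10), Camk2d, a calcium/calmodulin kinase subunit (-0.25, SE 0.12), and Map2k1, which activates ERK (-0.08, SE 0.04). The higher one was Ppp3r1, the regulatory subunit of calcineurin (0.17, SE 0.06). In females alone Camk2d was the 1 lower gene of this list (-0.39, SE 0.17), and it did not pass in males (-0.04, SE 0.08). Of 18 genes for CREB, SRF, MEF2 and their cofactors 1 was lower, Hdac5 (-0.12, SE 0.04), a deacetylase that represses MEF2, while Elk1 (0.09, SE 0.04), Hdac9 (-0.20, SE 0.10) and Crtc1 (0.07, SE 0.04) did not pass. In males alone the kinase list had Camk4 (0.24, SE 0.09), Prkar1b (0.19, SE 0.08) and Ppp3r1 (0.22, SE 0.09) higher and Adcy8 (-0.33, SE 0.13) lower, and the factor list had Mef2c (0.29, SE 0.12) higher and Crtc3 (-0.18, SE 0.08) lower. In both sexes together the medians of these lists were -0.03, 0.02 and -0.03.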

How the data were processed

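Cortex mRNA of 19 mice was sequenced by the authors on an Illumina HiSeq2000. Reads were counted per gene with Subread 1.4.0 and featureCounts on mouse build mm9, per the submitters' processing notes. The strand setting is not given in the sources used here. The authors deposited the read count of each gene in each library, and beside it the RPM. The RPM equalled the counts divided by a library total, within 4.85e-06. The 14996 genes of the table each exceeded 1 RPM in 2 or more libraries. All 38 value columns were used.

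Tests on the counts used edgeR 4.0.16 (R 4.3.3; quasi-likelihood), with TMM scaling, filterByExpr (minimum count 10, minimum total 15) and robust dispersions. The fits were HFD over ND in both sexes with a term for sex, in females, in males, the interaction of diet and sex, and females over males with a term for diet. P-values were adjusted by Benjamini-Hochberg over all genes tested. Calls use an unadjusted p under 0.05, the cut-off of the study, with the adjusted p beside it. The standard error is the fold change over the square root of F. The fits were tested on simulated counts, drawn with the same spread for every gene and with mice independent. The members vary more than that and partly together, so the simulation does not show how the fits behave for them. Labels give mice, with no litter, batch or run, and p-values measure the spread between these mice. The members and the gene lists were chosen with earlier results of these data known.

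Full values were given to the members with the smallest p in both sexes (at most 14), to Fos, Egr1, Arc, Npas4 and Nr4a1 whatever their p, to 3 each for the interaction and for sex, to 2 in each sex, and to the 4 genes with the smallest p of each pathway list. Egr4, Inhba and others outside this rule were named where a count includes them, after their values were seen.

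The alternatives were RLE scaling, library totals, no filter, DESeq2 1.42.0, limma-voom and limma 3.58.1 on log2 of RPM plus 1 or 0.1, no term for sex, and leaving out each mouse, or both mice with an A in their identifier. The olfactory bulb covariate and the fit without A1095 and F1252 were chosen after seeing the data. Promoter letters came from RefSeq (GRCm38.p6), another build than that of the counts, and no coordinate of the counts was used. Figures used matplotlib 3.10.9.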

Additional observations from a re-analysis of the deposited data

Results flagged for a closer look

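Of 92 sets of values (23 named members in 4 groups), 8 held a mouse whose gap to the nearest other, over the range of its group, exceeded Dixon's critical value. That value is set so that chance flags about 1 in 20 groups of normally distributed values, and the sets here share mice. Among ND females, F1073 was highest for Dusp4, at 22.6 RPM against 12.4 to 15.9 RPM in the others, and for Vgf, at 253 RPM against 199 to 214 RPM. ND female F1139 was highest for Nr4a3, at 26.0 RPM against 11.2 to 15.7 RPM, and for Npas4, at 36.4 RPM against 16.2 to 22.2 RPM. HFD male F1145 was highest for Sik1, at 36.2 RPM against 15.2 to 18.4 RPM. HFD male A1095 was lowest for Egr1, at 232 RPM against 372 to 387 RPM. Among ND males, F1080 was highest for Zfp36, at 4.10 RPM against 2.69 to 2.87 RPM, and F1128 was lowest for Gadd45g, at 5.46 RPM against 7.53 to 7.63 RPM. In the interaction test of edgeR, Klf4 was the 1 member of 51 past the cut-off, against 5.21% of all genes tested. Its fold change in females minus that in males was 0.48 on the log2 scale (edgeR unadjusted p 0.0026, adjusted p 0.903).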

How the results depend on the processing

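The 23 members named by rule kept the direction of their fold changes over both sexes under all 30 alternatives. Most of the 23 were picked for a small p in these same data, and most alternatives left out a single mouse. A kept direction was therefore likely in advance, and the other members were not followed in this way. No paired analysis was possible because the labels carry no replicate numbers or litters and each mouse is in 1 group. The members lower on HFD in both sexes, 18, numbered 19 with DESeq2, 21 with limma and 13 without the mice whose identifiers begin with A. In both sexes the higher members, 1, numbered 2 without those mice and 0 with the olfactory bulb covariate. In females the covariate left 3 lower and 0 higher, of 17 and 1. In males 8 lower became 13 with limma-voom, 14 with limma on log2 of RPM plus 1 or 0.1, and 14 with the covariate. The 1 higher male member became 0 with library totals, DESeq2, limma-voom, both limma fits, the covariate, or without A1095. The 10 members higher in females than in males became 6 without the A mice. The interaction gave 2 members with library totals or limma on RPM and 3 without the A mice. Leaving out each mouse in turn gave 14 to 22 lower and 1 to 2 higher in both sexes, 13 to 21 and 1 to 2 in females, 4 to 14 and 0 to 2 in males, 6 to 13 members higher and 3 to 6 lower in females than in males, 1 to 5 for the interaction and a median spread of 17.8% to 19.8%. The cause of these shifts was not tested. Past an adjusted p of 0.05, females had Fosl2 with DESeq2 (among 48 genes). Both sexes together had Klf4 with library totals (among 8 genes), Klf4 and Pim1 with limma on log2 of RPM plus 1 (8 genes), Kdm6b, Klf4 and Pim1 without ND female A1092 (22 genes), Klf4 and Pim1 without HFD female F1094 (10 genes), and Fosl2 and Sik1 without HFD male F1145 (7 genes). Males had Sik1 without F1145 (1 gene). The counts rest on 4 to 6 mice a group, and the lowest genes, Atf3 and Maff, on as few as 9 and 12 reads.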

Other observations

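Of 36 other activity-induced genes in the table that are not among the 51, 11 were lower on HFD in both sexes together and 0 were higher at the same cut-off, against 6.99% and 5.44% of all genes tested, with a median fold change of -0.08 over the 36. The 4 with the smallest p were Scg2, a secretogranin of dense-core vesicles (-0.36, SE 0.11), Cdkn1a, an inhibitor of cell cycle kinases (-0.28, SE 0.10), Pcsk1, which cuts neuropeptide precursors (-0.41, SE 0.15), and Amigo3, an adhesion protein gene (-0.36, SE 0.13). The other 7 were Per2, Rheb, Spry4, Sertad1, Id1, Jund and Rasl11a. In females 5 of the 36 were lower and in males 5, with none higher in either sex. Of all genes tested, 4.5% were lower and 3.92% higher in females, and 4.2% were lower and 4.2% higher in males. This list too was chosen with earlier results of these data known.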
